A study of Mus musculus with 16 samples.

Results

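Havcr2 and 7 genes tied to inhibitory signalling in myeloid cells were examined in bulk RNA-seq of mouse knee joints. The 8 genes were chosen by name: Havcr2 and its ligand Lgals9, Cd274, Sirpa and its ligand Cd47, Pirb, and Cd200r1 and its ligand Cd200. Of the 13733 genes in the table, 7 were among the 8, and Pirb was not analysed here. All 7 passed the filter on low values and were tested with the other genes.

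RNA was sequenced from cells of knee joints of 16 C57BL/6 mice in 4 groups of 4. WT and Trem2-/- mice were either uninjured (D0) or taken 7 days after a single tibial compression that ruptured the anterior cruciate ligament (D7), a model of post-traumatic osteoarthritis. By the study's methods the mice were male and 10 weeks old at injury, whereas the sample labels give an age of 16 weeks. Trem2-/- mice (C57BL/6J-Trem2em2Adiuj/J) carry the same germline allele in both copies of the gene, in all cells and not only in macrophages. The labels name cells from knee joints as the source, but their extraction text speaks of homogenized joints, and the study's methods refer for these cells to the single-cell protocol, which separated CD45+ from CD45- cells with magnetic beads. Which fraction, or whether both, entered these libraries is not given in the sources used here. Each library held marker RNA of leukocytes and of other cell types, and a change in the number of cells of a type cannot be told apart from a change in RNA per cell.

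Inhibitory receptors hold myeloid cells in check. Many carry tyrosine motifs in their cytoplasmic tails that recruit the phosphatases SHP-1 (Ptpn6) and SHP-2 (Ptpn11) once a ligand binds. Havcr2 encodes TIM-3, which lacks such classical motifs and is found on macrophages, dendritic cells and exhausted T cells, and galectin-9 (Lgals9) is one of its reported ligands. SIRPα (Sirpa) on macrophages binds CD47, the "do not eat me" signal of other cells, CD200R (Cd200r1) binds CD200 on endothelial and other cells, and Cd274 encodes PD-L1, the ligand of PD-1. TREM2 is an activating receptor of macrophages that signals through the adaptor DAP12 (Tyrobp).

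Promoters are shown for Havcr2, which rose with injury in WT mice, and for Lgals9 and Cd274, which fell in both genotypes. Each sequence holds the 250 bases before the RefSeq start of the gene (GRCm38.p6), and the table of promoters held 5 of the 7 genes. Capitals mark a match to 1 of 3 motifs searched on both strands from 250 bases before to 50 bases after the start. These were the PU.1 site GAGGAAGT, bound by the factor that directs myeloid gene expression, the GAS motif TTCNNNGAA of interferon-gamma signalling, and the ISRE of interferon-stimulated genes.
Havcr2 (chr11:46454681-46454930, + strand): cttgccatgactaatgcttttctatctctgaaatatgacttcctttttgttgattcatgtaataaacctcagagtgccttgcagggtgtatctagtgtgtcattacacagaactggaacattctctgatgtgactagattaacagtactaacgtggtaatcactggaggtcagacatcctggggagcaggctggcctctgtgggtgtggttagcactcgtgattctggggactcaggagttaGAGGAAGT
Lgals9 (chr11:78984925-78985174, - strand): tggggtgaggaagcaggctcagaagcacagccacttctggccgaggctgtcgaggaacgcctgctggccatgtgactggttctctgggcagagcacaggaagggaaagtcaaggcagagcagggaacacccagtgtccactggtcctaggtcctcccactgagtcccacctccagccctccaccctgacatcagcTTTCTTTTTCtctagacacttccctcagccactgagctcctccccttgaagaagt
Cd274 (chr19:29367188-29367437, + strand): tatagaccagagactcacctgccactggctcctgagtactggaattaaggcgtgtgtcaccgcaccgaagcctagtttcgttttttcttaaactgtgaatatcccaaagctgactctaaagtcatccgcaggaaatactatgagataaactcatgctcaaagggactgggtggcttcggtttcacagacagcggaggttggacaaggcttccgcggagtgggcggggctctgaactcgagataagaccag

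The match to the PU.1 site in the Havcr2 promoter began 8 bases before the start. It was the only match of the 3 motifs among the windows of Havcr2, Cd274, Cd47 and Cd200. Lgals9 held 2 matches to the ISRE, both on the opposite strand, at 55 bases before the start and, outside the stretch printed, at 16 bases after it. Of all 32851 promoters of the same length, 3.20% held the PU.1 site, 8.30% the GAS motif and 3.44% the ISRE. These matches are descriptions of the letters, and no binding was measured. The motifs were set after the Havcr2 promoter had been seen.

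Libraries held between 11567073 and 32867818 reads, so that 3 reads corresponded to between 0.101 and 0.250 CPM (the TMM-normalized unit of the table), a limit that covers counting error only. Trem2 was reduced but not absent in Trem2-/- mice, at 0.948 to 2.68 CPM against 2.51 to 5.61 CPM in WT at D0 and at 3.42 to 4.84 CPM against 10.7 to 22.5 CPM at D7. The ranges overlapped at D0 and stood apart at D7. Leukocyte markers (Ptprc, Cd53, Coro1a, Laptm5, Cd52 and Lcp1) were present in every library. So were the markers of macrophages (Adgre1, Cd68, Csf1r, Mrc1, C1qa, C1qb, C1qc and Ms4a7), and none of these was at 0 in a library.

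On GRCm38, Havcr2 at chr11:46454935-46481255 (+) and Lgals9 at chr11:78962974-78984946 (-) lie on the same chromosome. Cd47 at chr16:49800533-49915010 (+), Cd200r1 at chr16:44765736-44794978 (+) and Cd200 at chr16:45382135-45409053 (-) lie together on another. Cd274 at chr19:29367455-29388095 (+) and Sirpa at chr2:129592835-129632228 (+) stand alone. The levels of the 7 genes differed widely. Per kilobase of exon, Lgals9 was highest in every group, with means from 33.8 to 62.2 CPM per kilobase, and its mice did not overlap those of the gene next in order. Sirpa, Cd200, Cd274 and Cd47 followed, with means from 15.4 to 38.7 CPM per kilobase, and neighbours among these 4 overlapped in each group. Havcr2 came sixth, with 3.86 ± 1.04 CPM per kilobase in WT D0 and 7.93 ± 1.65 CPM per kilobase in WT D7 (SD, n = 4). Cd200r1 was lowest, and at D0 its mice overlapped those of Havcr2 in both genotypes, whereas at D7 they did not. This order compares levels, not changes.

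**Figure D1:**
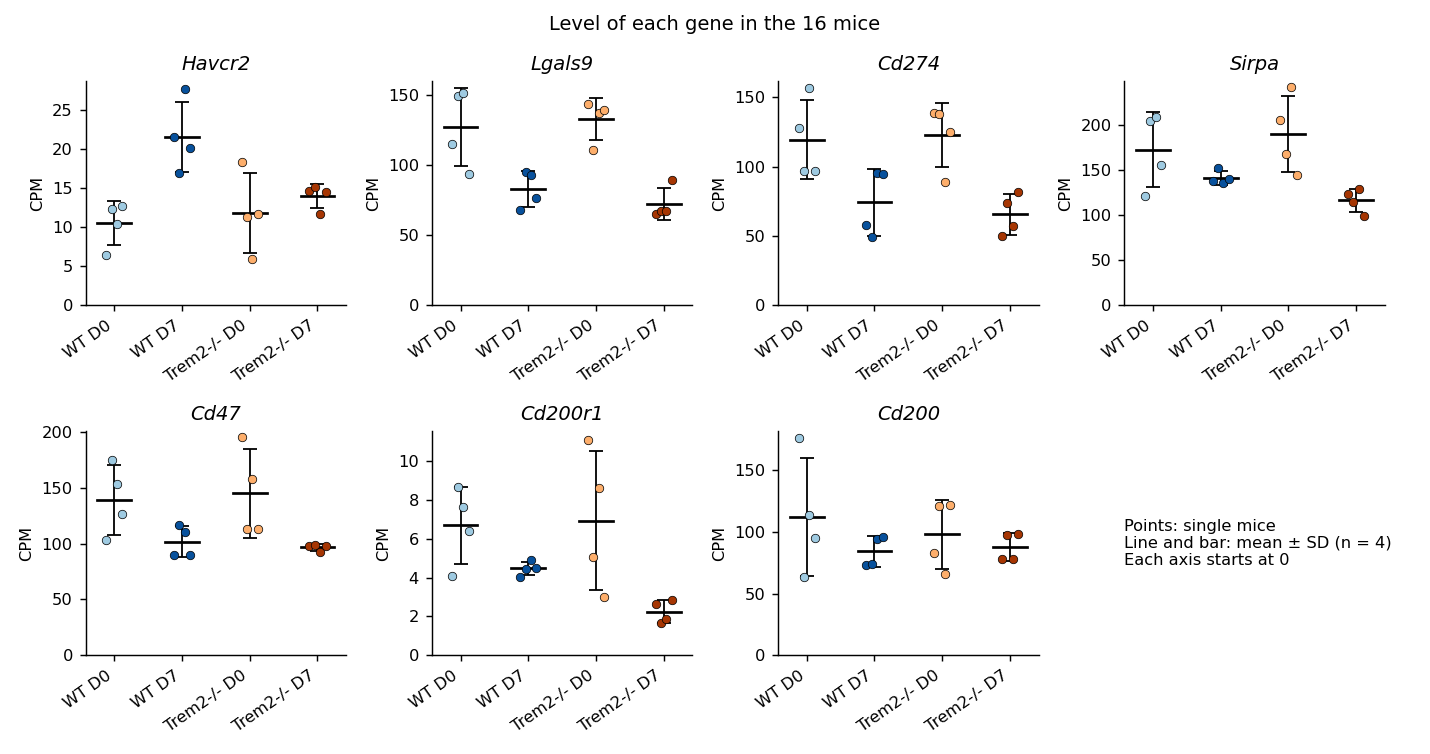
Level of each gene in CPM (y axes, each from 0) in the 4 mice of each group (x axes), with points for single mice and lines and bars for the mean ± SD. Havcr2 rises from a mean of 10.5 to 21.6 CPM with injury in WT mice, its means in Trem2-/- mice are 11.8 and 14.0 CPM, and Lgals9 and Cd274 are lower at D7 than at D0 in both genotypes.

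Injury in WT mice was examined first, to ask how the 7 genes stood at D7 against D0. The mean of Havcr2 rose 2.06-fold, whereas the mean of Lgals9 fell by 34.9%, that of Cd274 fell by 37.8% and that of Cd47 fell by 27.0%. Sirpa, Cd200r1 and Cd200 did not pass the test. With the study's rule, an unadjusted p under 0.05 and a log2 fold change beyond 0.32 in either direction, 4 of the 7 genes were called beside 37.4% of all 13173 genes tested. Of these, 3 were called lower (18.2% of all genes) and 1 higher (19.3%), and 3 had an adjusted p under 0.05 (28.5%). The values of D0 and D7 did not overlap for 2 of the 7 genes (22.2% of all genes). The median log2 fold change of the 7 was -0.43, against -0.04 over all genes.

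Havcr2, the TIM-3 gene, was at 6.51, 12.3, 10.5 and 12.7 CPM in the WT D0 mice and at 21.6, 16.9, 27.6 and 20.2 CPM in the WT D7 mice. Every D7 mouse lay above every D0 mouse. The mean rose from 10.5 ± 2.82 to 21.6 ± 4.49 CPM (SD, n = 4), a log2 fold change of 0.99 with an SE of 0.26 on the log2(CPM + 1) scale (limma, adjusted p = 0.0127).

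Its ligand gene Lgals9 went the other way. Lgals9 was at 115, 149, 152 and 94.1 CPM in WT D0 and at 67.8, 95.0, 92.8 and 76.6 CPM in WT D7. The lowest D0 mouse lay just under the highest D7 mouse, and otherwise the groups were apart. The log2 fold change was -0.60 with an SE of 0.16 (limma, adjusted p = 0.0148). Under the alternatives the adjusted p ranged from 0.00331 to 0.0586 (limma).

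Cd274, the PD-L1 gene, was at 128, 96.8, 156 and 96.9 CPM in WT D0 and at 57.9, 49.4, 95.3 and 94.7 CPM in WT D7. A pair of D7 mice lay close under the lowest D0 mice and the other two were far below. The log2 fold change was -0.71 with an SE of 0.24 (limma, adjusted p = 0.0369). The call by the study's rule held under every alternative, but the adjusted p ranged from 0.0215 to 0.122 (limma). Of the exon bases of Cd274, 14.1% lie opposite an exon of AC119228.1 on the other strand. Reads in that stretch are uncertain, because the sources used here do not say whether strand was used in counting.

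Sirpa ranged from 122 to 209 CPM in WT D0 and from 136 to 153 CPM in WT D7. The D7 mice all lay within the D0 range, and the log2 fold change was -0.25 with an SE of 0.17 (limma, adjusted p = 0.278). Cd47 was at 103, 175, 153 and 127 CPM in WT D0 and at 89.8, 117, 111 and 90.2 CPM in WT D7, so that 1 D0 mouse lay within the D7 range. Its log2 fold change of -0.43 with an SE of 0.18 passed the study's rule but not adjustment (limma, adjusted p = 0.083). The call was lost without WT D0 replicates 2 or 3 or WT D7 replicates 1 or 4, with log2 fold changes of -0.31 to -0.38.

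Cd200r1 was at 4.06, 8.65, 7.65 and 6.37 CPM in WT D0 and at 4.04, 4.42, 4.89 and 4.51 CPM in WT D7. The lowest D0 mouse was at the level of the D7 mice, and the difference of -0.45 with an SE of 0.28 on the log2 scale was not called (limma, adjusted p = 0.231). Without that mouse, WT D0 replicate 1, Cd200r1 passed the study's rule at -0.64 and Sirpa at -0.41 on the log2 scale. Cd200, which endothelial cells carry, ranged from 63.2 to 177 CPM in WT D0 and from 73.1 to 96.3 CPM in WT D7, and was not called at -0.32 with an SE of 0.26 (limma, adjusted p = 0.347). Without WT D0 replicate 2 it was called at -0.56.

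With injury in Trem2-/- mice 5 of the 7 genes were called lower: Cd200r1, Cd274, Lgals9, Sirpa and Cd47. Havcr2 and Cd200 did not pass the test. The 5 called genes stand beside 54.5% of all genes, the 5 called lower beside 27.9%, and 0 members were called higher beside 26.5%. All 5 had an adjusted p under 0.05 (53.2% of all genes), and the values of D0 and D7 did not overlap for the same 5 (52.4%). The median log2 fold change of the 7 was -0.68, against -0.04 over all genes.

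Havcr2 was at 18.3, 11.3, 5.96 and 11.7 CPM in Trem2-/- D0 and at 14.6, 15.2, 11.6 and 14.5 CPM in Trem2-/- D7. The D0 mice spread on both sides of the D7 mice. The mean went from 11.8 ± 5.07 to 14.0 ± 1.58 CPM (SD, n = 4), and the log2 fold change of 0.31 with an SE of 0.26 was not called (limma, adjusted p = 0.332). Without Trem2-/- D0 replicate 1 it was 0.53 and was called by the study's rule.

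Cd200r1 was at 11.1, 5.05, 8.59 and 3.01 CPM in Trem2-/- D0 and at 2.65, 1.65, 1.85 and 2.84 CPM in Trem2-/- D7. Every D7 mouse lay below every D0 mouse, and the mean fell from 6.94 ± 3.60 to 2.25 ± 0.584 CPM (SD, n = 4). The log2 fold change was -1.18 with an SE of 0.28 (limma, adjusted p = 0.00275), the largest of the 7 genes in this comparison. Of the 75-base stretches of its transcripts, 0.401% are shared with Cd200r4, an activating relative.

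Lgals9 was at 144, 111, 138 and 140 CPM in Trem2-/- D0 and at 65.2, 67.1, 67.4 and 89.2 CPM in Trem2-/- D7. The D7 mice lay close together except for replicate 4, which stood above the others, yet below every D0 mouse. The log2 fold change was -0.88 with an SE of 0.16 (limma, adjusted p = 0.000438). Cd274 was at 138, 138, 89.2 and 125 CPM in Trem2-/- D0 and at 49.8, 73.8, 57.2 and 82.0 CPM in Trem2-/- D7, a log2 fold change of -0.90 with an SE of 0.24 (limma, adjusted p = 0.00523).

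Sirpa, whose product restrains phagocytosis, was at 206, 168, 242 and 145 CPM in Trem2-/- D0 and at 123, 115, 129 and 99.7 CPM in Trem2-/- D7. All D7 mice lay below the D0 mice, with a log2 fold change of -0.68 and an SE of 0.17 (limma, adjusted p = 0.00428). Its ligand gene Cd47 ranged from 113 to 196 CPM in D0 and from 92.3 to 99.1 CPM in D7, a log2 fold change of -0.54 with an SE of 0.18 (limma, adjusted p = 0.0209). Cd200 ranged from 65.9 to 122 CPM in D0 and from 78.2 to 98.3 CPM in D7, and its log2 fold change of -0.12 with an SE of 0.26 was not called (limma, adjusted p = 0.718).

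**Figure D2:**
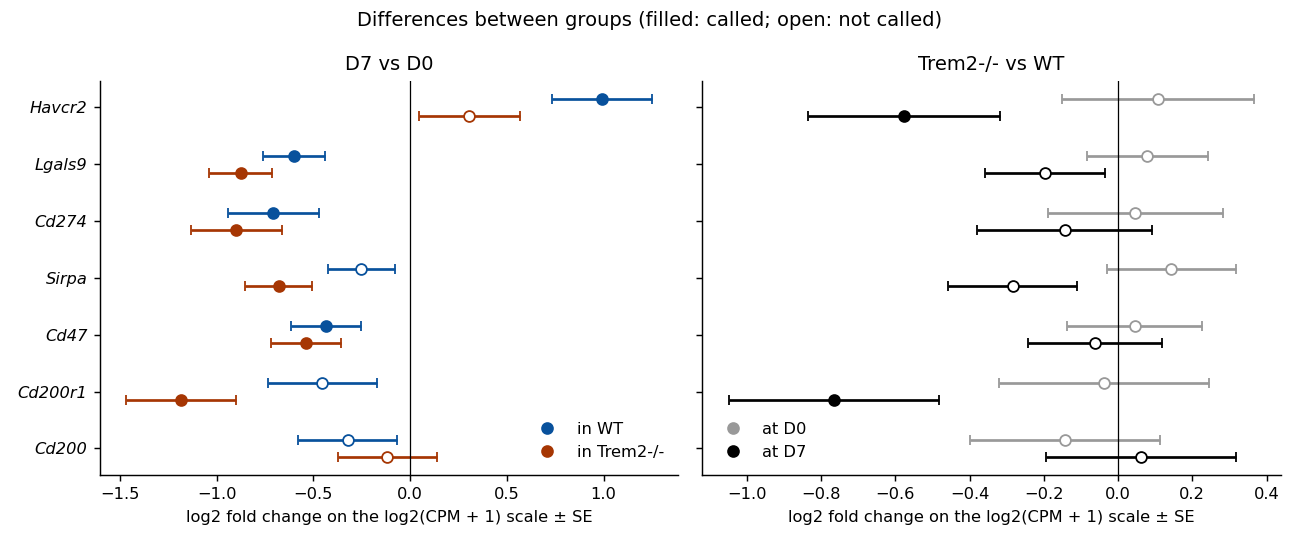
Log2 fold changes (x axes, on the log2(CPM + 1) scale) with SE bars for the 7 genes (y axis), for D7 against D0 on the left and for Trem2-/- against WT on the right. Filled points passed the study's rule and open points did not: Havcr2 is the only gene with a filled point above 0, and at D7 the filled points are Havcr2 at -0.58 and Cd200r1 at -0.77.

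Genotype at D7 was the comparison in which the study itself named Havcr2 from these mice, so the Havcr2 value here is not independent evidence of its direction. Trem2-/- D7 mice had less Havcr2 and less Cd200r1 than WT D7 mice, and the other 5 genes did not pass the test. By the study's rule 2 of the 7 genes were called beside 5.72% of all genes, both lower (4.53%). After adjustment 0 members and 0% of all genes passed in limma, where 958 genes had an unadjusted p under 0.05. On the recovered reads 0 members passed adjustment in edgeR or voom, and both called Havcr2 and Cd200r1 by the study's rule. Of the 753 genes called, 79.3% were lower, and 66.7% after quantile normalization. The groups did not overlap for 3 of the 7 genes, Havcr2, Cd200r1 and Sirpa (8.33% of all genes). The median log2 fold change of the 7 was -0.20, against 0.01 over all genes.

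For Havcr2 the highest Trem2-/- D7 mouse (15.2 CPM) lay below the lowest WT D7 mouse (16.9 CPM). The means of 14.0 and 21.6 CPM gave a log2 fold change of -0.58 with an SE of 0.26 (limma, unadjusted p = 0.0417, adjusted p = 0.658). The call was lost without WT D7 replicates 1, 3 or 4 or without any of the 4 Trem2-/- D7 mice, with log2 fold changes from -0.46 to -0.62, and it did not pass with a fold change over 1.5.

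For Cd200r1 the highest Trem2-/- D7 mouse (2.84 CPM) lay below the lowest WT D7 mouse (4.04 CPM). The means of 2.25 and 4.47 CPM gave a log2 fold change of -0.77 with an SE of 0.28 (limma, unadjusted p = 0.0159, adjusted p = 0.593), and the call held without any 1 mouse. For this low gene the log2 fold change depended on the scale, at -0.99 in edgeR and -0.39 with a pseudocount of 5. Sirpa was also apart, at 99.7 to 129 CPM in Trem2-/- D7 against 136 to 153 CPM in WT D7, but its log2 fold change of -0.28 with an SE of 0.17 was not called (limma, adjusted p = 0.774). Lgals9, Cd274, Cd47 and Cd200 overlapped between the genotypes, with log2 fold changes of -0.20, -0.14, -0.06 and 0.06 and SEs of 0.16, 0.24, 0.18 and 0.26.

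At D0 the genotypes were not distinguished by any of the 7 genes. By the study's rule 0 of the 7 were called beside 2.15% of all genes, and for 0 of the 7 did the groups stand apart (0.979%). The log2 fold changes lay between -0.14 and 0.14, with SEs of 0.16 to 0.28 that leave room for differences of that size or larger in either direction. Whether injury acted differently in the genotypes was tested by the interaction, which called 0 of the 7 genes beside 7.79% of all genes. The largest interactions were -0.73 for Cd200r1, with an SE of 0.40 (limma, unadjusted p = 0.0878, adjusted p = 0.654), and -0.68 for Havcr2, with an SE of 0.37 (limma, unadjusted p = 0.0815, adjusted p = 0.648). The change of Havcr2 with injury, which passed in WT and not in Trem2-/- mice, was therefore not shown to differ between them. With edgeR on recovered reads the interaction of Cd200r1 was called at -1.04, and without Trem2-/- D0 replicate 3 that of Havcr2 was called at -0.95.

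Other genes of these pathways were taken from lists of named genes. Of 18 other inhibitory receptors of myeloid cells 15 were tested, and none was called higher in any of the comparisons. With injury 12 of the 15 were called lower in WT and 14 of the 15 in Trem2-/- mice, beside 18.2% and 27.9% of all genes. The median log2 fold changes were -0.83 and -1.68. Those of 6 general leukocyte markers were close, at -0.79 and -1.82. Clec12a, a receptor for uric acid crystals, fell from 93.1 to 32.7 CPM in WT mice, and Siglecg, a sialic acid receptor known from B cells, fell from 26.1 to 9.77 CPM (limma, adjusted p = 0.0172 and 0.00471). In Trem2-/- mice Siglece, a sialic acid receptor of neutrophils and macrophages, fell from 42.1 to 8.16 CPM and Siglecg from 26.1 to 5.65 CPM (limma, adjusted p = 6.71e-05 and 4.11e-05).

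At D7, 8 of the 15 receptors were called lower in Trem2-/- than in WT mice, beside 4.53% of all genes. Of the 15, 0 had an adjusted p under 0.05. The count was 5 without WT D7 replicates 1, 2 or 3 or Trem2-/- D7 replicate 4. The log2 fold change was negative for all 15, with a median of -0.67. That of the 6 general leukocyte markers was close, at -0.64. Cd300lf, which binds phospholipids of dying cells, was at a mean of 75.9 CPM in Trem2-/- and 166 CPM in WT mice, and Cd300a, of the same family, at 27.8 and 51.4 CPM (limma, adjusted p = 0.547 and 0.451). At D0, 0 of the 15 were called lower, beside 1.37% of all genes, and 1 without WT D0 replicate 1. The interaction called 4 of the 15 lower, beside 5.02%, and this count lay between 4 and 10 when 1 mouse was left out, reaching 8 to 10 without WT D0 replicates 2 or 3 or Trem2-/- D0 replicate 4. The largest were Siglece at -1.23 and Cd300lf at -1.20, each with an SE of 0.44 (limma, adjusted p = 0.579 for both).

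Signalling proteins below the receptors were called lower for 6 of 11 tested in WT injury, beside 18.2% of all genes, and for 8 of 11 in Trem2-/- injury, beside 27.9%. Their median log2 fold changes were -0.46 and -1.25. The WT count was 3 without WT D0 replicates 2 or 3 or WT D7 replicate 1. Ptpn6, the phosphatase SHP-1 that many inhibitory receptors recruit, fell from 133 to 56.8 CPM in WT and from 165 to 32.6 CPM in Trem2-/- mice (limma, adjusted p = 0.0203 and 7.58e-05). Fgr, a kinase of the Src family in myeloid cells, fell from 146 to 83.5 CPM and from 193 to 43.8 CPM (limma, adjusted p = 0.0265 and 2.68e-05). Dok1, an adaptor that acts below CD200R, rose in both genotypes, with log2 fold changes of 0.70 and 0.72 (limma, adjusted p = 0.00295 and 0.000515). At D7, 5 of the 11 were called lower in Trem2-/- than in WT mice, beside 4.53% of all genes, and 0 after adjustment. Among the 5 was the adaptor Fyb, at 32.7 against 63.9 CPM. The interaction called 5 of the 11 lower, beside 5.02% of all genes, with Fgr at -1.26 (SE 0.36) on the log2 scale (limma, adjusted p = 0.579).

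Of the activating relatives and their adaptors, 6 were tested. With injury 5 of the 6 were called lower in WT and 6 of 6 in Trem2-/- mice, beside 18.2% and 27.9% of all genes. The median log2 fold changes of the 6 were -0.78 and -1.63. Tyrobp, the adaptor DAP12 that serves TREM2 and many activating receptors, fell from 400 to 211 CPM in WT and from 469 to 130 CPM in Trem2-/- mice (limma, adjusted p = 0.0155 and 8.16e-05). Pilrb2, an activating paired receptor, fell from 29.7 to 12.5 CPM and from 36.7 to 8.05 CPM. At D7, 3 of the 6 were called lower in Trem2-/- mice, beside 4.53% of all genes, and 0 after adjustment. This count was 1 without WT D7 replicate 3 or Trem2-/- D7 replicates 1 or 2, and 5 with a pseudocount of 0.1. Among them Cd300lb was at 25.7 against 47.9 CPM and Fcer1g, the common gamma chain of Fc receptors, at 70.7 against 113 CPM. The interaction called 3 of the 6 lower, beside 5.02% of all genes, with Fcer1g at -0.91 and Tyrobp at -0.85, and this count was 0 without WT D0 replicates 1 or 4, WT D7 replicate 3 or Trem2-/- D0 replicate 1 and 1 without WT D7 replicate 4 or Trem2-/- D7 replicate 1.

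Genes listed as binding partners of the 8 chosen genes were mixed. The list held ligands of PIR-B, whose gene Pirb was not analysed here, and the gene of PD-L2, another ligand of PD-1. In WT mice 1 of 9 was called higher and 2 lower with injury, beside 19.3% and 18.2% of all genes, and in Trem2-/- mice 2 higher and 5 lower, beside 26.5% and 27.9%. The WT shares lay near those of all genes. Without 1 mouse the WT count of 2 lower ranged from 1 to 5, reaching 1 without WT D0 replicate 3 or WT D7 replicate 1 and 5 without WT D7 replicate 3. It was 4 after quantile normalization and 1 with only the groups compared. Angptl2, a secreted ligand of PIR-B, rose from 151 to 579 CPM in WT and from 56.5 to 813 CPM in Trem2-/- mice (limma, adjusted p = 0.00252 and 2.03e-05). H2-K1, a class I chain of the kind that PIR-B binds, had means of 935 CPM at D0 and 683 CPM at D7 in WT mice, and Hmgb1, a ligand of TIM-3, 35.5 and 25.9 CPM (limma, adjusted p = 0.0442 and 0.0904). Rtn4 (Nogo), another PIR-B ligand, rose from 309 to 470 CPM in Trem2-/- mice (limma, adjusted p = 0.00825). Pdcd1lg2, the PD-L2 gene, fell from 5.66 to 2.15 CPM there, and Thbs1, a ligand of CD47, from 7660 to 3769 CPM (limma, adjusted p = 0.00577 and 0.0202). In limma none of the 9 was called between the genotypes at D7. With edgeR 1 was called lower there, and so was 1 in a fit of the D7 mice alone or after leaving out WT D7 replicates 1 or 2, WT D0 replicate 3 or Trem2-/- D0 replicate 3. Angptl2 was called lower in Trem2-/- mice at D0, at -1.02, and higher by the interaction, at 1.51 on the log2 scale (limma, adjusted p = 1.00 and 0.579). The D0 call was lost without WT D0 replicates 1 or 4 or Trem2-/- D0 replicates 2 or 3.

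Interferon-gamma signalling is known to raise Cd274. Of 7 genes of that pathway, 3 were called lower with injury in WT and 4 in Trem2-/- mice, beside 18.2% and 27.9% of all genes, and none between the genotypes at D7 or D0. Irf1, the factor through which interferon-gamma acts on Cd274, had means of 437 CPM at D0 and 241 CPM at D7 in WT (limma, adjusted p = 0.0666) and 513 and 211 CPM in Trem2-/- mice (limma, adjusted p = 0.00401). Ifngr1, a chain of the receptor, fell from 151 to 98.9 CPM in WT mice (limma, adjusted p = 0.00259), and Ifng itself fell from 2.77 to 0.710 CPM in Trem2-/- mice (limma, adjusted p = 0.00198). Of the other Tim family genes only Timd4 was tested, and it was called lower with injury in Trem2-/- mice alone, with a log2 fold change of -0.51.

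**Figure D3:**
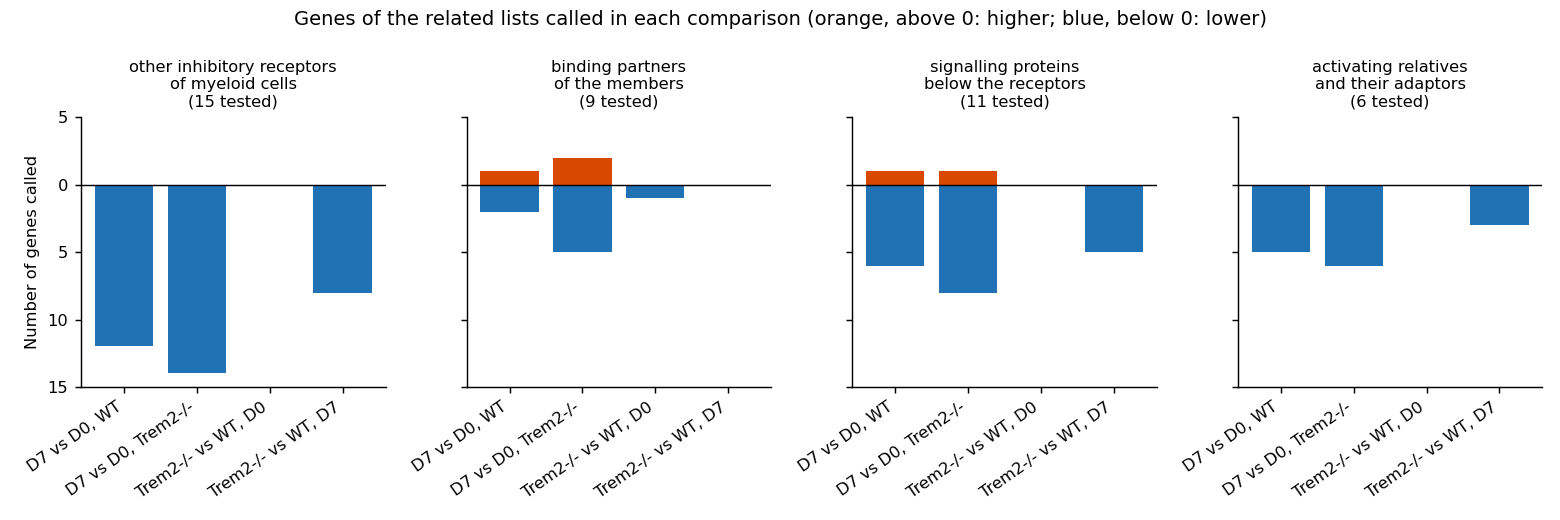
Number of genes called higher (orange, above 0) and lower (blue, below 0) in 4 related lists (panels) for each comparison (x axes). Of 15 other inhibitory receptors, 12 and 14 are called lower with injury in WT and Trem2-/- mice. Between the genotypes 0 are called at D0, and 8 are called lower in Trem2-/- mice at D7.

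Marker RNA of several cell types also differed between the groups. The summed leukocyte markers ranged from 2678 to 5222 CPM in WT D0, from 1514 to 3335 CPM in WT D7, from 3322 to 5728 CPM in Trem2-/- D0 and from 1197 to 1501 CPM in Trem2-/- D7. All 6 were called lower with injury in WT and in Trem2-/- mice, beside 18.2% and 27.9% of all genes. At D7, 5 of the 6 were called lower in Trem2-/- than in WT mice, beside 4.53% of all genes, and 0 after adjustment. Ptprc of this list, and Adgre1 and Csf1r of the macrophage list, were named by the study from these mice at D7. All 6 neutrophil and all 4 B cell markers were also called lower with injury in both genotypes, beside the same 18.2% and 27.9%.

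Summed macrophage markers rose with injury in both genotypes. Havcr2 was called higher in WT mice only, but its interaction of genotype and injury was not called. The sum ranged from 212 to 388 CPM in WT D0 and from 529 to 740 CPM in WT D7. In Trem2-/- mice it ranged from 293 to 331 CPM at D0 and from 419 to 496 CPM at D7. Of the 8 markers, 7 were called higher with injury in WT and 6 in Trem2-/- mice, beside 19.3% and 26.5% of all genes. In Trem2-/- mice 1 was called lower with injury, beside 27.9%. At D7, 3 were called lower in Trem2-/- than in WT mice, beside 4.53%, and 0 after adjustment. Relative to this sum, Havcr2 stood at 35.1 ± 7.53 CPM per 1000 CPM of markers in WT D0, 32.6 ± 7.14 in WT D7, 37.5 ± 14.5 in Trem2-/- D0 and 29.4 ± 1.23 in Trem2-/- D7 (SD, n = 4). The 4 groups overlapped on this measure, so that relative to this sum neither the rise with injury nor the genotype difference at D7 stood out beyond the spread between mice. The sum weighs abundant markers most. With injury the median log2 fold change of the 8 markers was 2.00 in WT and 1.72 in Trem2-/- mice, against 0.99 and 0.31 for Havcr2. Between the genotypes at D7 it was -0.39, against -0.58 for Havcr2.

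Relative to the leukocyte sum, Havcr2 was at 2.01 to 3.91 CPM per 1000 CPM of markers in WT D0 and at 8.28 to 14.3 in WT D7. In Trem2-/- mice it was at 1.14 to 3.53 at D0 and at 7.76 to 12.2 at D7. On this measure D7 lay above D0 in both genotypes without overlap, and the genotypes overlapped at D7. Cd200r1 overlapped among all groups relative to leukocyte markers, with means of 1.68 ± 0.234 in WT D0, 2.08 ± 0.500 in WT D7, 1.40 ± 0.474 in Trem2-/- D0 and 1.69 ± 0.508 in Trem2-/- D7 (SD, n = 4). Lgals9 and Cd274, which fell in CPM, were not lower at D7 on this measure: Lgals9 went from 33.0 ± 6.73 to 38.4 ± 9.32 in WT mice and from 29.4 ± 8.45 to 53.7 ± 7.79 in Trem2-/- mice. Cd274 went from 31.9 ± 11.6 to 33.2 ± 7.87 and from 27.3 ± 8.81 to 48.8 ± 10.4. In Trem2-/- mice every D7 mouse lay above every D0 mouse for both genes on this measure. The same held there for Sirpa, at 35.9 to 46.1 in D0 and 71.1 to 103 in D7. It also held for Cd47, at 24.8 to 34.2 and 61.5 to 81.8. In WT mice D0 and D7 overlapped for each of these genes. Relative to the macrophage sum the picture was the reverse. Cd200r1 was at 22.3 ± 5.46 CPM per 1000 CPM of markers in WT D0, 6.78 ± 1.21 in WT D7, 22.1 ± 11.1 in Trem2-/- D0 and 4.73 ± 1.09 in Trem2-/- D7 (SD, n = 4). On this measure D7 lay below D0 in both genotypes, and the Trem2-/- D7 mice (3.34 to 5.71) lay below the WT D7 mice (5.96 to 8.53). Lgals9 went from 438 ± 119 to 125 ± 18.4 in WT and from 429 ± 63.0 to 153 ± 21.8 in Trem2-/- mice, and Cd274 from 412 ± 134 to 115 ± 50.1 and from 392 ± 58.3 to 138 ± 26.4. Thus whether Cd200r1, Lgals9 and Cd274 were lower at D7 depended on the marker sum used. These ratios were chosen after the values were seen, and no test was made of them.

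**Figure D4:**
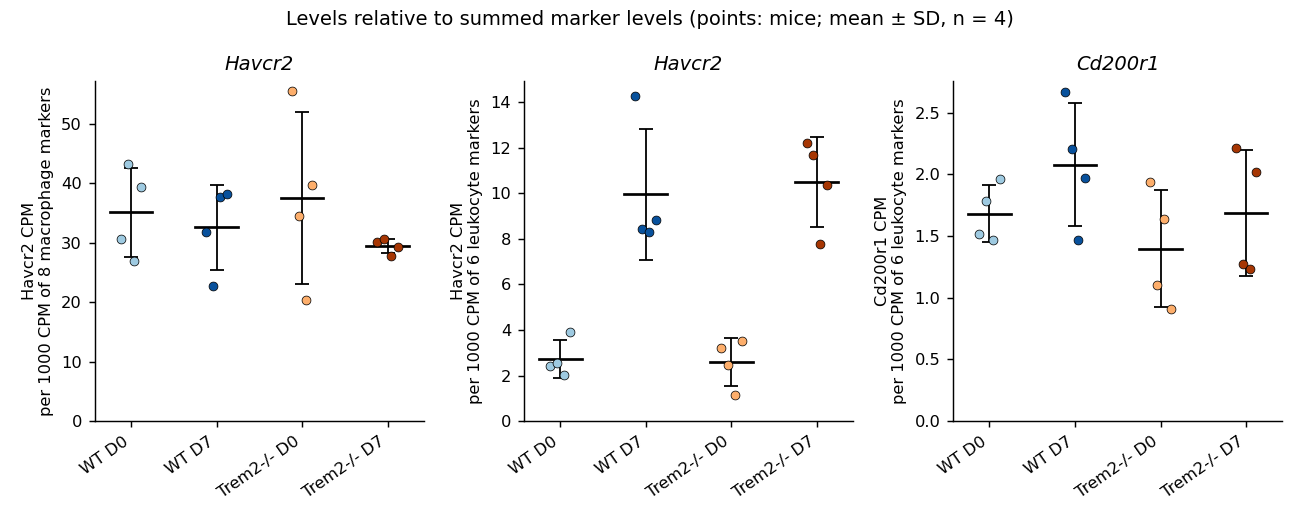
Havcr2 relative to the sum of 8 macrophage markers (left) and of 6 leukocyte markers (middle), and Cd200r1 relative to the leukocyte markers (right), in CPM per 1000 CPM of markers (y axes, from 0) for the 4 mice of each group, with the mean ± SD. The groups overlap on the left and on the right, whereas in the middle the D7 mice lie at 7.76 to 14.3 and the D0 mice at 1.14 to 3.91.

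Endothelial markers (Pecam1, Cdh5, Kdr and Tek) were not called in any comparison, and neither was Cd200 with all mice included. Relative to their sum, Cd200 was at 76.2 ± 9.65 CPM per 1000 CPM of markers in WT D0, 58.0 ± 10.7 in WT D7, 66.7 ± 13.2 in Trem2-/- D0 and 53.2 ± 2.11 in Trem2-/- D7 (SD, n = 4). The means were thus lower at D7 in both genotypes. D0 and D7 overlapped in WT mice (66.4 to 87.4 and 49.3 to 72.3) but not in Trem2-/- mice (56.0 to 85.1 and 50.1 to 54.6). In the other direction, fibroblast markers summed to 4384 to 35195 CPM in WT D0 and to 52649 to 88710 CPM in WT D7, and to 4198 to 7841 CPM and 62660 to 98724 CPM in Trem2-/- mice. Chondrocyte markers summed to 270 to 9047 CPM in WT D0 and 24544 to 62991 CPM in WT D7, and to 181 to 2501 CPM and 22345 to 34172 CPM in Trem2-/- mice, so that the genotypes overlapped at D7. Dendritic cell and T cell markers, of cells that also carry TIM-3, were low. The dendritic cell sum ranged from 16.6 to 39.0 CPM in WT D0, 9.09 to 15.6 CPM in WT D7, 19.9 to 35.4 CPM in Trem2-/- D0 and 6.09 to 7.16 CPM in Trem2-/- D7. The T cell sum ranged from 5.68 to 13.8, 3.74 to 5.99, 8.89 to 13.0 and 2.34 to 3.83 CPM in the same order of groups. The part of these shifts in the values of the 7 genes was not tested.

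The genes whose pattern over the 16 libraries was nearest to each member were found by the root mean square difference of centred log2 values among 10545 candidates. For Havcr2 they were Slc7a8 (0.24), an amino acid transporter, Serpinb8 (0.32), a protease inhibitor, and Rab7b (0.32), a lysosomal GTPase. The nearest of the other 6 members to Havcr2, Cd47, was at 0.69, above the spread of Havcr2 itself (0.52). For Cd200r1 the nearest gene was Il18r1 (0.25), a chain of the interleukin-18 receptor, followed by Tiam1 (0.25) and Celf2 (0.26). Gja4 (0.15), a connexin of arterial endothelium, was nearest to Cd200, followed by Camk2n1 (0.15) and Kitl (0.16).

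Among the members Sirpa and Cd47, a receptor and its ligand, were nearest to each other, at 0.18. Lgals9 was at 0.24 from Cd47 and at 0.34 from Cd274. Outside the members, Rnf130 (0.13), Psme1 (0.14) and Lcmt2 (0.15) were nearest to Lgals9, and St3gal6 (0.18), Arrdc4 (0.19) and Pfkfb3 (0.20) to Cd274. Tmem164 (0.10), Sgk3 (0.11) and Kmt5a (0.12) were nearest to Sirpa, and Crnkl1 (0.11), Nt5c3 (0.12) and Med11 (0.12) to Cd47. These differences are descriptions over libraries that share their groups.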

How the data were processed

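Bulk RNA-seq of 16 libraries was analysed, 4 mice for each genotype and time, grouped by the genotype and injury in their labels. Nothing beyond the labels says that replicates are independent, so p-values measure the spread between these libraries. The authors aligned reads to mm10 with STAR, counted them with featureCounts and deposited TMM-normalized CPM (edgeR), a signal relative to each library's effective size. Versions, annotation, strand setting and low-count filter are not given in the sources used here. Fcgr1, listed 2 times, was used once.

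Values were compared on the log2(CPM + 1) scale in R 4.3.3 with limma 3.58.1, its eBayes step using a trend. Tested were 13173 genes reaching 1 CPM in 4 or more libraries, with 1 factor of 4 groups, in place of voom because the deposited values are normalized. Fold changes on this scale understate those of low genes. Calls needed an unadjusted p under 0.05 and a fold change over 1.25, and adjusted p-values are Benjamini-Hochberg over all genes tested. Whole reads were recovered for 100% of values within 0.05 of a read, and edgeR 4.0.16 and voom were run on them as alternatives. All replicate pairs differed beyond sampling noise. Tests were checked on simulated data.

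The members and lists were chosen with earlier results of these data known. Named from each list were, per comparison, the 2 genes called in each direction with the largest fold change and a mean of 1 CPM or more; pattern neighbours were the 3 nearest genes whose mean reached 5 CPM. The values of 1 gene that this rule names are not reported here, and list counts include it. Timd4 and the endothelial markers were named outside these rules. Positions are from GENCODE M21 (GRCm38, the mm10 build), matched by 13428 of 13733 symbols, and promoters from RefSeq. Alternatives were other pseudocounts, filters, normalizations, fits and call rules, a replicate block and leaving out each mouse; the list counts were added to them after the data were seen.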

Additional observations from a re-analysis of the deposited data

Results flagged for a closer look

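Among 84 groups of 4 values examined for a single mouse far from the others, 2 stood out, where chance gives about 4.2. Lgals9 in Trem2-/- D7 replicate 4 was at 89.2 CPM against 65.2 to 67.4 CPM in the other three mice, a gap of 0.909 of the group's range. The macrophage marker sum in Trem2-/- D7 replicate 3 was at 419 CPM against 485 to 496 CPM, a gap of 0.849 of the range.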

How the results depend on the processing

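Over 938 log2 fold changes recomputed for the 7 genes under the alternatives, 892 kept their direction and their side of the study's rule, 12 lost a call, 9 gained one and 25 changed sign. None of the 25 was called, and 24 came from leaving out 1 mouse. Without 1 mouse, D0 genotype differences ranged from -0.12 to 0.37 for Havcr2, -0.0569 to 0.17 for Lgals9, -0.0436 to 0.19 for Cd274, -0.0131 to 0.26 for Sirpa, -0.11 to 0.16 for Cd47, -0.28 to 0.25 for Cd200r1 and -0.39 to 0.10 for Cd200. Likewise Cd200 ranged from -0.29 to 0.00110 for injury in Trem2-/- mice, from -0.00336 to 0.13 for genotype at D7 and from -0.0423 to 0.45 for the interaction, and Cd47 from -0.12 to 0.00591 at D7 and from -0.22 to 0.0504 for the interaction. With edgeR, Cd200r1 at D0 was at 0.0542.

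Members called at D7 numbered 1 instead of 2 with a fold change over 1.5 or a replicate block and 0 after adjustment, and 1 to 2 without 1 mouse, where Havcr2 was lost each time but adjustment also took Cd200r1. For the interaction 1 member, Cd200r1, was called with edgeR, and 0 to 2 without 1 mouse: Havcr2 without Trem2-/- D0 replicate 3, Cd200r1 and Sirpa without Trem2-/- D0 replicate 4, and Sirpa without WT D0 replicate 3. Without 1 mouse, 3 to 6 members were called for injury in WT and 5 to 6 in Trem2-/- mice.

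Over all genes, calls for injury in WT fell from 4933 to 2985 with a fold change over 1.5. At D7, calls went from 753 to 340 with that threshold, to 1366 when only the 2 groups compared were fitted (65.5% of them lower), to 0 after adjustment and to 480 to 1123 without 1 mouse. At D0 they went from 283 to 466 with edgeR, 164 with a pseudocount of 5, 149 with only the groups compared, 131 with a fold change over 1.5, 0 after adjustment and 107 to 1231 without 1 mouse. Interaction calls went from 1026 to 635 with a fold change over 1.5, 0 after adjustment and 609 to 2236 without 1 mouse. The causes were not tested. Fits with only the groups compared do not apply to the interaction.

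Replicate numbers did not pair the mice: of 24 pairs of the same number, 11 had a correlation of deviations over 0.1 (range -0.51 to 0.41), and the best match carried the same number in 7 of 24 cases. With the replicate block, Havcr2 at D7 kept a log2 fold change of -0.58 but was not called (adjusted p = 0.753, against 0.128 to 0.995 over its alternatives), and all genes called numbered 757; other receptors called lower by the interaction numbered 7 instead of 4. The block changed no other call of a member. Depth limits low genes most: Cd200r1 lies closest to the limit of 3 reads.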
